A study of Mus musculus with 12 samples.

Results

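The genes described here are 10 genes of the growth hormone, insulin-like growth factor (IGF) and insulin signalling axis, out of 24062 gene symbols counted in each library. They are the growth hormone receptor Ghr, the ligand Igf1, its serum carrier subunit Igfals, the binding proteins Igfbp1, Igfbp2, Igfbp3 and Igfbp4, the receptor Igf1r and the insulin receptor substrates Irs1 and Irs2. They were chosen by name, for their place in the pathway. All 10 passed the filter on low counts in every comparison. A stricter filter, of at least 10 counts in every library, removed Igfals from every comparison that included xenografts. The study asked how a diet without the amino acid tryptophan (No-Trp) changes liver tumors, and RNA was sequenced from 12 mice in 4 groups of 3, each kept on its diet for 21 days. A first pair of groups were livers of male FVB mice that carry a MYC transgene under a tetracycline-responsive element (TRE-MYC) and a liver-specific driver (LAP-tTA), with doxycycline withdrawn at birth so that MYC was on in both diet groups (MYC-ON livers). The study reported lower MYC expression in such livers on the No-Trp than on the control diet, though still above wild type. It also reported fewer and smaller tumors on that diet. The control livers are those of mice 101, 102 and 103, and the No-Trp livers those of mice 105, 107 and 108. The labels give an age of 45 days, in a sentence on MYC-ON and wild-type males, and no age is used here for the xenograft hosts. The other pair were tumors of HCC53N cells, 1 mouse liver cancer line without p53 and with mutant Nras, implanted subcutaneously in the flanks of NOD SCID females, which lack T and B lymphocytes. Control tumors came from mice 40, 41 and 43, and No-Trp tumors from mice 35, 36 and 37. The labels also describe the tumor cells as MYC-ON, which was not settled here. Host cells in the tumors are mouse cells too, so their reads cannot be separated from those of HCC53N.

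The IGF axis is the main route by which growth hormone acts on body growth. Growth hormone binds its receptor on hepatocytes and, through JAK2 and STAT5, switches on Igf1 and Igfals, so that the liver supplies most of the IGF-1 in blood, where it travels in a complex with IGFBP-3 and the acid-labile subunit that Igfals encodes. Insulin acts through the receptor substrates IRS1 and IRS2 on AKT and the FOXO factors, and FOXO factors switch on Igfbp1 and Irs2 when insulin is low. Adult hepatocytes are known to hold little IGF-1 receptor, while many tumor cells use it as a growth receptor.

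The genes lie on 7 chromosomes of the mouse genome (GRCm38, GENCODE M21). Igfbp1 (chromosome 11, 7197782 to 7202546, plus strand) and Igfbp3 (chromosome 11, 7206086 to 7213923, minus strand) are neighbours whose ends face each other across 3539 bases, and Igfbp4 lies further along chromosome 11 (99041244 to 99054392). Igf1 (chromosome 10, 87858265 to 87937042), Irs1 (chromosome 1, 82233101 to 82291416) and Irs2 (chromosome 8, 10984681 to 11008458) each overlap a gene on the other strand. The strand setting of the authors' counting is not given in the sources used here, so reads of these genes and of their antisense partners cannot be told apart. Igfbp2 lies on chromosome 1 (72824503 to 72852474), Igfals on chromosome 17 (24865997 to 24882010), Ghr on chromosome 15 (3317760 to 3583492) and Igf1r on chromosome 7 (67952827 to 68233668), with no annotated overlap.

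Promoter windows from 250 bases before to 50 bases after the start site were taken from RefSeq (GRCm38.p6) and searched on both strands for 5 letter patterns. These were the STAT5-type palindrome TTCNNNGAA, the FOXO site GTAAACA, the insulin response core CAAAACA, the ATF4-type element TGATGNAA and the E-box CACGTG, which 8.30%, 3.65%, 6.28%, 3.97% and 7.15% of 32851 windows hold. Igfals, Igfbp1, Igfbp2, Irs1 and Irs2 had a match in at least 1 window, and the windows of Igf1, Ghr, Igfbp3, Igfbp4 and Igf1r had none. A match is a description of the letters, not a site of binding. The windows below are shown because Igfals, Igfbp1 and Irs1 stand for the growth hormone, the low-insulin and the receptor substrate arm of the results that follow, with the matches in capitals and each sequence written 5′ to 3′ on the strand of its gene. In Igfals (chr17:24877981-24878280, plus strand, the second of 3 windows) the capitals mark the reverse complement of the FOXO site at position −242 and a STAT5-type palindrome at −58, counted from the start site. In Igfbp1 (chr11:7197537-7197836, plus strand) they mark the insulin response core at −108. In Irs1 (chr1:82291390-82291689, minus strand) they mark an E-box that overlaps a reverse insulin response core, at −115 and −111, and a further reverse core at −32.
Igfals: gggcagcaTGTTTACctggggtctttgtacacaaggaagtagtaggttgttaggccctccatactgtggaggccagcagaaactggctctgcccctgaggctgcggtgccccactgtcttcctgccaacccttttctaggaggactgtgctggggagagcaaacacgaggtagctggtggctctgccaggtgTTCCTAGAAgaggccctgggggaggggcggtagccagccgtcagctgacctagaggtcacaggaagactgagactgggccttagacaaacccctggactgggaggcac
Igfbp1: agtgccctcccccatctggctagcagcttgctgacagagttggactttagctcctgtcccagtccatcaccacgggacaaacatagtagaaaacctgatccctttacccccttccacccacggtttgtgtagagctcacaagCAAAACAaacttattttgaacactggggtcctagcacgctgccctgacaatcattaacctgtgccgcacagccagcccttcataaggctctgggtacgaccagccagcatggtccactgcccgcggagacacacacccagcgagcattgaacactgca
Irs1: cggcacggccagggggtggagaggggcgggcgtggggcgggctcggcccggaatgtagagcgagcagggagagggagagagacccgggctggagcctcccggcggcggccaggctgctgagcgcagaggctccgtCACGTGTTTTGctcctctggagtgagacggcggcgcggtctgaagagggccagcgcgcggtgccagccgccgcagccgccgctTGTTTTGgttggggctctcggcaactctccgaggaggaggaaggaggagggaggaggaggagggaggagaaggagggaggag

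Counts on genes ranged from 14660963 to 26085349 reads per library. Between 24.7% and 39.4% of the reads were not on a single gene and were left out. Levels are given as CPM, the reads of a gene relative to the size of its library, with sizes scaled by TMM factors, which correct for a few genes taking up many reads. Replicate libraries differed by more than sampling noise (chi-square per degree of freedom of 34.6 to 274), so none was counted as a duplicate. The spread between mice over all genes was 31.6% in the livers and 28.7% in the xenografts. In control liver 101, 12.1% of the counts on genes were from the ribosomal RNA gene Rn45s, against 0.261% to 2.22% in the other 11 libraries. Summed hepatocyte markers (9 of 10 found, such as Alb and Apoa1) were 12220 to 42210 CPM in the control livers, 52070 to 128100 CPM in the No-Trp livers and 520 to 1749 CPM in the xenografts. Summed cholangiocyte markers (5 of 5, such as Krt19 and Spp1) were 2944 to 10790 CPM in the xenografts and 86.7 to 167 CPM in the livers. Hepatocyte markers were thus low in these tumors of a liver cancer line. Libraries 101 and 108 of the livers and 41 and 43 of the xenografts carry a resubmission mark, treated as a possible batch.

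Most of the axis stood at very different levels in the livers and in the tumors. On the control diet, the liver-made ligand and carriers Igf1, Igfals, Igfbp1 and Igfbp2 and the substrate Irs2 were lower in the xenografts, and Igf1r, Igfbp3 and Irs1 were higher. Thus 3 of the 10 genes were called higher and 5 lower (edgeR; a call needs an adjusted p of 0.05 or less and a log2 fold change no smaller than 1 in size), where 23.3% of 15472 genes were called higher and 20.2% lower. Tissue, strain, sex of the host and origin of the cells differ together here and cannot be told apart.

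Igf1r was held at 5.63, 5.75 and 5.79 CPM in the control livers and at 75.5, 97.7 and 97.8 CPM in the control xenografts. The highest liver lay far below the lowest tumor, and Igf1r was 15.8-fold higher in the xenografts (log2 fold change 3.98 ± 0.21 (SE), edgeR adjusted p = 2.69e-08). Igfbp3, which carries most IGF in serum, was at 47.1 to 51.7 CPM in the control livers and 828 to 1223 CPM in the control xenografts (log2 fold change 4.47 ± 0.26, adjusted p = 7.28e-08 with edgeR). In liver, non-parenchymal cells rather than hepatocytes are known to make Igfbp3. Irs1 was 4.27-fold higher in the xenografts (67.3 ± 18.6 CPM against 15.8 ± 2.09 CPM, SD, n = 3 each). Irs2 went the other way, at 6.74 ± 1.73 CPM in the xenografts against 30.6 ± 16.1 CPM in the livers (log2 fold change −2.19 ± 0.41, edgeR adjusted p = 0.000626). Per kilobase of exon, Irs1 was above Irs2 in every control xenograft (7.36 ± 2.03 against 1.07 ± 0.27 CPM per kb), and Irs2 was above Irs1 in every control liver (4.84 ± 2.54 against 1.73 ± 0.23 CPM per kb).

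The ligand and carriers made by hepatocytes were at low levels in the tumors. Igfbp1 was at 3.35 to 7.70 CPM in the control xenografts against 102 to 469 CPM in the control livers (log2 fold change −5.59 ± 0.64, edgeR adjusted p = 1.81e-05). Igfbp2 was at 3.11 to 4.51 CPM against 118 to 290 CPM (log2 fold change −5.70 ± 0.62, adjusted p = 1.24e-05 with edgeR). Igfals had 7, 5 and 3 reads in control xenografts 41, 43 and 40, which is 0.147 to 0.305 CPM, against 3.55 to 44.7 CPM in the control livers (log2 fold change −6.14 ± 1.04, edgeR adjusted p = 0.000387). Igf1 was at 6.81 to 16.7 CPM in the control xenografts and 27.5 to 254.5 CPM in the control livers (log2 fold change −3.35 ± 0.79, adjusted p = 0.00333 with edgeR). Only Ghr and Igfbp4 were not called between the models. Their log2 fold changes were 0.07 (95% interval −0.85 to 0.98) for Ghr and 0.54 (−0.04 to 1.12) for Igfbp4. The same 8 calls stood in each of 12 fits that left out 1 library.

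**Figure D1:**
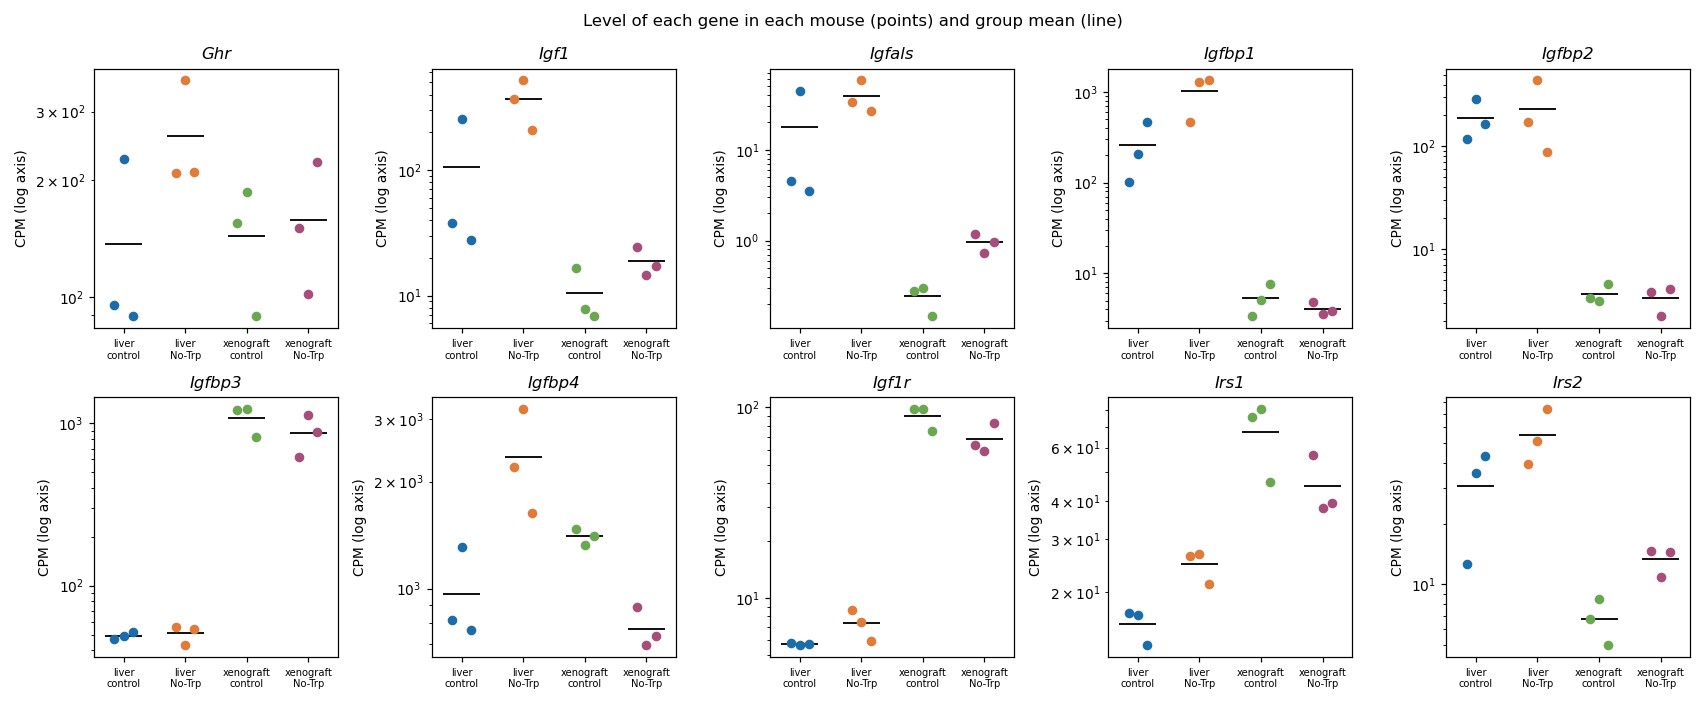
Levels of the 10 genes in every mouse (points, CPM on a log axis) with the group mean (line), for control and No-Trp livers and control and No-Trp xenografts, 3 mice each. Igf1r, Igfbp3 and Irs1 sit higher in all 6 xenografts than in all 6 livers, Igfbp1 and Igfbp2 lower, and among the control livers mouse 102 stands high for Igf1, Igfals and Ghr.

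In the MYC-ON livers, Igfbp4 was the only gene of the 10 called changed by the No-Trp diet, and it rose. Of all 14122 genes tested, 9.28% were called higher and 7.27% lower, so a single call among 10 is near the background. Irs1 passed the adjusted p but not the fold. Igfbp1, Igf1, Igfals, Ghr and Irs2 had higher means on the No-Trp diet and did not pass. The fitted fold change was above 0 for all 10 genes, against 49.8% of all genes tested, but below 0 for Igfbp2 and Igfbp3 when library totals replaced the TMM factors. That change of scale moved the median of all genes by −0.29 on the log2 scale in the livers and 0.11 in the xenografts. Beside all liver results, the summed markers of dividing cells (6 of 6, such as Mki67 and Top2a) fell from 1066 to 1226 CPM in the control livers to 75.8 to 335.5 CPM in the No-Trp livers, with 6 of 6 called lower, and 2 of 8 hepatocyte markers tested were called higher. The part of these shifts in the results was not tested, and in whole livers fewer cells of a type and less RNA per cell cannot be told apart.

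Igfbp4, a binding protein that holds IGFs back from their receptor until a protease cleaves it, was at 818, 1306 and 766 CPM in control livers 101, 102 and 103. In No-Trp livers 105, 107 and 108 it was at 2197, 3197 and 1637 CPM. Every No-Trp liver was above every control liver, and Igfbp4 was 2.47-fold higher (log2 fold change 1.30 ± 0.36 (SE), edgeR adjusted p = 0.0389). The log2 difference of the means was 1.41 among the livers without the resubmission mark (2 against 2) and 1.00 between the pair with it. The call was lost on library totals (log2 fold change 0.97, adjusted p = 0.0599) and when mouse 101, 103, 105 or 107 was left out (edgeR adjusted p of up to 0.151), and the alternatives as a whole gave adjusted p of 0.00174 to 0.151.

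For the ligand, its carrier and the growth hormone receptor, the edgeR calls depended on 1 control liver. Igf1 was at 37.8, 254.5 and 27.5 CPM in control livers 101, 102 and 103 and at 370.2, 519 and 208 CPM in No-Trp livers 105, 107 and 108. Control liver 102 lay above No-Trp liver 108, so the groups overlapped. The log2 fold change was 1.81 ± 0.87 and did not pass (edgeR adjusted p = 0.160), while DESeq2 called Igf1 higher on the same 6 libraries (1.80, adjusted p = 0.0469), and the alternatives as a whole gave adjusted p of 0.00324 to 0.428. Igfals was at 4.58, 44.7 and 3.55 CPM in the same control livers and 33.9, 57.9 and 26.6 CPM in the No-Trp livers (log2 fold change 1.199 ± 0.95, adjusted p = 0.374 with edgeR). Ghr was at 95.6, 226.9 and 89.2 CPM against 209, 361 and 209.7 CPM (log2 fold change 0.94 ± 0.41, edgeR adjusted p = 0.128). In each of these genes mouse 102 was the control liver that reached into the No-Trp range. Without mouse 102, 4 of the 10 genes were called higher, with log2 fold changes of 3.49 for Igf1, 3.28 for Igfals, 1.49 for Ghr and 1.57 for Igfbp4. In that fit 1959 of all 14412 genes tested were called higher. Control liver 102 also had the highest summed hepatocyte markers of its group, at 42210 CPM against 15330 CPM in mouse 101 and 12220 CPM in mouse 103. The part of this difference in the result was not tested.

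Igfbp1, the binding protein that rises within hours of fasting or amino acid lack, was at 102, 206 and 469 CPM in control livers 101, 102 and 103. It was at 467, 1279 and 1338 CPM in No-Trp livers 105, 107 and 108. The groups touched, since No-Trp liver 105 was level with control liver 103. The log2 fold change was 2.00 ± 0.64, with an edgeR adjusted p of 0.0580 that misses the threshold. With DESeq2 Igfbp1 was called (adjusted p = 0.00367), and it was called in one fit over all 12 libraries (adjusted p = 0.0167, edgeR), while the alternatives as a whole gave adjusted p of 0.00367 to 0.172. Igfbp2, an IGF carrier of the fetal and fasting liver, was at 118, 289.9 and 164 CPM against 174, 439.7 and 87.6 CPM, with the highest and the lowest of the 6 livers both on the No-Trp diet. Igfbp3 stayed within 42.9 to 55.8 CPM in all 6 livers, with a log2 fold change of 0.06 (95% interval −0.31 to 0.43).

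The receptor and its substrates had smaller differences. Irs1 was at 17.1, 16.8 and 13.4 CPM in the control livers and 26.3, 26.8 and 21.3 CPM in the No-Trp livers, without overlap. Its log2 fold change of 0.67 ± 0.19 passed the adjusted p (edgeR, 0.0435) but not the fold threshold. Within the livers without the resubmission mark the log2 difference of Irs1 was 0.78 (2 against 2), and it was 0.30 between the marked pair. Igf1r, at 5.63 to 5.79 CPM in the control livers and 5.90 to 8.63 CPM in the No-Trp livers, did not overlap either, and did not pass (log2 fold change 0.38 ± 0.25, edgeR adjusted p = 0.283). Irs2, which FOXO factors switch on in fasted liver, was at 12.6, 35.7 and 43.5 CPM against 39.6, 51.6 and 73.7 CPM (log2 fold change 0.86 ± 0.46, adjusted p = 0.196 with edgeR). Igfbp4, Irs1 and Igf1r were thus the 3 genes of 10 whose liver groups did not overlap, where 48.6% of all genes tested had no overlap.

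In the xenografts, 0 of the 10 genes were called changed by the diet, by edgeR or by DESeq2. An unadjusted p under 0.05 with edgeR was found for 4 of them, beside 2483 of all 14704 genes. Few genes were called there at all, 0.245% of 14704 higher and 0.116% lower. Igfbp4 was at 1474, 1331 and 1403 CPM in control tumors 41, 43 and 40 and at 887, 693 and 736 CPM in No-Trp tumors 35, 36 and 37. All No-Trp tumors were below all control tumors, with a log2 fold change of −0.87 ± 0.15 that missed the adjusted p (edgeR, 0.0508) and the fold. Its adjusted p ran from 0.000255 with DESeq2 to 0.195 in one fit over all libraries. Irs2 was at 6.74, 8.47 and 4.999 CPM in the control tumors and 14.6, 10.8 and 14.5 CPM in the No-Trp tumors, again without overlap (log2 fold change 0.97 ± 0.27, edgeR adjusted p = 0.152, with DESeq2 0.0276, and 0.0276 to 0.309 over all alternatives). Igfals had 33, 22 and 23 reads in No-Trp tumors 35, 36 and 37 against 7, 5 and 3 in controls 41, 43 and 40 (log2 fold change 1.96 ± 0.54, adjusted p = 0.151 with edgeR). Those 3 genes of 10 had groups without overlap, where 22.5% of all genes tested did. Igfals passed the low-count filter here through the No-Trp tumors alone, where it is higher. A filter of at least 10 counts in every library removed it from testing.

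The other genes of the axis overlapped between the diets in the tumors. Irs1 was at 75.8, 80.2 and 46.0 CPM in control tumors 41, 43 and 40 and 56.8, 37.8 and 39.5 CPM in No-Trp tumors 35, 36 and 37 (log2 fold change −0.60 ± 0.25, edgeR adjusted p = 0.269). Both control tumors above the No-Trp range carry the resubmission mark, and with that mark as a covariate the log2 fold change of Irs1 was −0.05. Igf1 was at 16.7, 7.74 and 6.81 CPM against 24.2, 14.6 and 17.3 CPM (log2 fold change 0.83 ± 0.37, adjusted p = 0.301 with edgeR). Igf1r was at 97.7, 97.8 and 75.5 CPM against 63.3, 59.4 and 82.7 CPM (log2 fold change −0.41 ± 0.18, edgeR adjusted p = 0.305). With the resubmission mark as a covariate the log2 fold change of Igf1r was −0.15. Ghr had a log2 fold change of 0.13 (95% interval −0.70 to 0.96) and Igfbp3 one of −0.32 (−0.89 to 0.25). Igfbp1 and Igfbp2 were at 2.20 to 7.70 CPM in all 6 tumors. The mark is found in control tumors alone, so within the unmarked tumors the comparison is 3 against 1, where the log2 difference was −0.87 for Igfbp4 and 1.24 for Irs2. Beside these values, summed adipocyte markers (5 of 5) were 11.4 to 66.9 CPM in the control and 351 to 739 CPM in the No-Trp tumors, with 2 of 5 called higher, and their part was not tested.

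**Figure D2:**
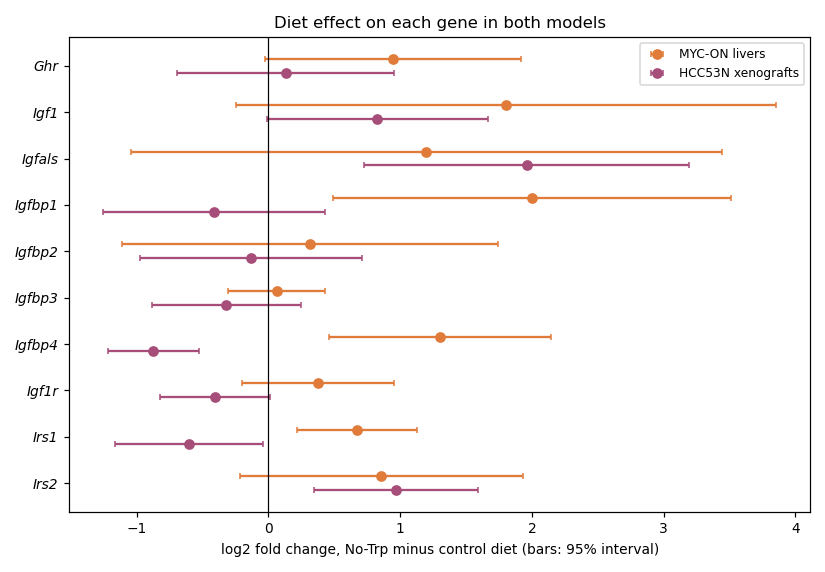
Log2 fold change of No-Trp against control diet for each gene (points) with its 95% interval (bars), for MYC-ON livers and HCC53N xenografts. Igfbp4 lies at 1.30 in the livers and −0.87 in the xenografts with intervals that do not meet, and the wide liver intervals of Igf1 and Igfals cross 0.

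The diet effects of both models were compared directly through an interaction term, fitted on the 12 libraries together. It was called for 2 of the 10 genes, Igfbp4 and Irs1, against 12.7% of 15472 genes. For Igfbp4 the effect in the xenografts was lower than in the livers by −2.14 ± 0.38 on the log2 scale (edgeR adjusted p = 0.0082), and this stood in 12 of 12 fits that left out 1 library. For Irs1 it was lower by −1.24 ± 0.33 (edgeR adjusted p = 0.0278), and this stood in 5 of 12 such fits, with adjusted p of 0.0540 to 0.0747 when 103, 105, 107, 36, 37, 41 or 43 was left out. Irs1 was not called with the resubmission mark as a covariate (−1.10, adjusted p = 0.0562) nor on library totals (adjusted p = 0.102), where Igfbp4 was (log2 difference −1.73, adjusted p = 0.0130). Igfbp1 had a difference of −2.39 ± 0.76 that missed the threshold in this fit (edgeR adjusted p = 0.0551). It was called with DESeq2 (adjusted p = 0.00702), with resubmission as a covariate (0.0424), with at least 10 counts in every library (0.0434) and without mouse 103 or 105, and the alternatives as a whole gave 0.00702 to 0.135. Igf1r had a difference of −0.76 ± 0.26 (edgeR adjusted p = 0.0673, and 0.0356 to 0.384 over the alternatives), below the fold threshold in each. Without mouse 102 Igf1 was called as well (−2.65, adjusted p = 0.0125 with edgeR). The median of the 10 differences was −0.77. The interaction uses the same libraries as both diet comparisons.

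The binding proteins were also read as a mixture, by the share of each in the summed level of Igfbp1 to Igfbp4 per kilobase of exon, with no test. In the control livers Igfbp4 made up 45.3% ± 13.0, Igfbp1 28.8% ± 17.2, Igfbp2 22.9% ± 5.74 and Igfbp3 2.99% ± 0.94 (SD, n = 3 mice). In the No-Trp livers Igfbp1 made up 45.7% ± 16.9, Igfbp4 42.5% ± 12.7, Igfbp2 10.5% ± 5.59 and Igfbp3 1.24% ± 0.54. The share of Igfbp2 was 17.8% to 29.1% in the control and 4.38% to 15.3% in the No-Trp livers, without overlap, while the shares of Igfbp1 and Igfbp4 overlapped. The sum itself was between 371 and 682 CPM per kb in the control livers and between 1003 and 1969 CPM per kb in the No-Trp livers. In the xenografts Igfbp1 and Igfbp2 each made up less than 1%, and Igfbp3 and Igfbp4 were at 48.5% ± 5.81 and 50.6% ± 5.48 on the control diet and 57.4% ± 10.5 and 41.6% ± 10.2 on the No-Trp diet. Their sum was 630 to 768 CPM per kb on the control and 429.5 to 543 CPM per kb on the No-Trp diet, lower in every No-Trp tumor than in every control tumor.

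**Figure D3:**
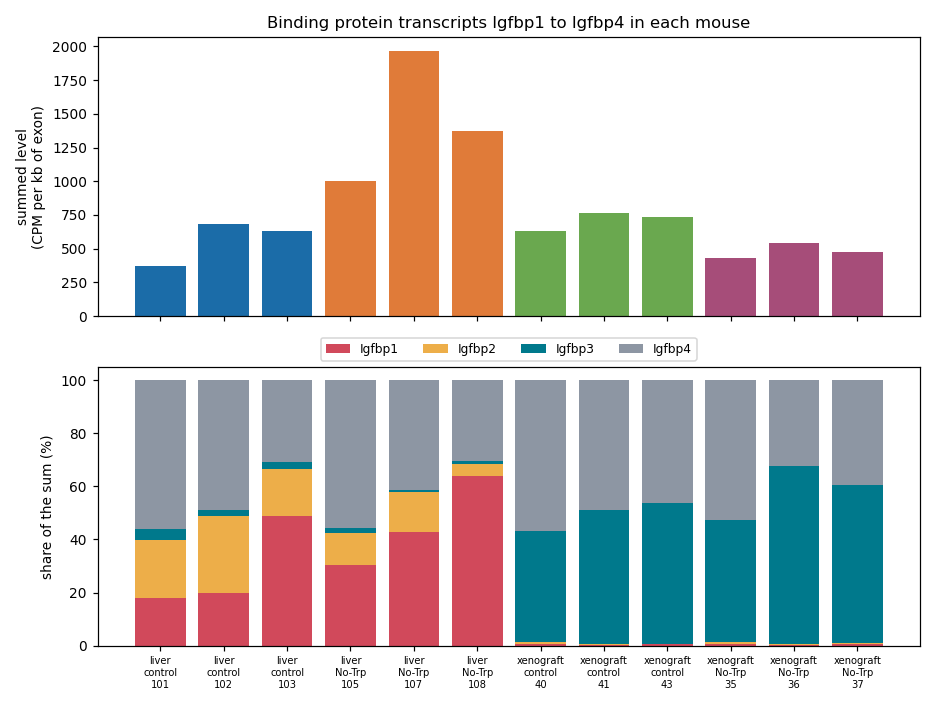
Upper panel, summed level of Igfbp1 to Igfbp4 (CPM per kilobase of exon) in each of the 12 mice, and lower panel, the share of each binding protein in that sum (%). All No-Trp livers have a larger sum than all control livers, Igfbp2 takes a smaller share there, and the xenografts hold Igfbp3 and Igfbp4 with less than 1% each of Igfbp1 and Igfbp2.

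The ligand Igf2 and the receptors Igf2r and Insr were named here after their values were seen. Igf2, the fetal ligand that liver tumors often express, was at 721 ± 180 CPM per kb in the control livers and 288 ± 189 CPM per kb in the No-Trp livers, against 10.8 ± 12.9 and 36.9 ± 15.7 CPM per kb for Igf1. Single No-Trp livers had Igf2 at 392, 70.1 and 402 CPM per kb, all below the control livers at 524 to 876 CPM per kb, and the change did not pass (log2 fold change −1.31 ± 0.62, edgeR adjusted p = 0.155). Igf2 shares bases with another gene on its strand. The scavenger receptor Igf2r had a log2 fold change of −0.80 ± 0.22 (edgeR adjusted p = 0.0371), and the insulin receptor Insr one of 0.72 ± 0.21 (0.0438), so both passed the adjusted p and neither the fold. Insr was far above Igf1r per kilobase in the control livers (11.7 ± 0.19 against 0.50 ± 0.01 CPM per kb), and close to it in the control xenografts (9.38 ± 0.30 against 7.92 ± 1.13 CPM per kb).

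Other genes of the pathway were counted in 7 lists of 106 genes. In the livers 97 were tested, of which 20 (20.6%) were called higher and 1 (1.03%) lower, beside 9.28% and 7.27% of all genes. Of the 20 calls in the livers, 11 were in the list of female-biased genes. In the xenografts 1 of 88 tested was called higher and 0 lower, beside 0.245% and 0.116% of all genes. The shares called higher include genes, named below, that passed the low-count filter through the No-Trp group alone. The lists were also chosen with earlier results of these data known. Left-out libraries moved the liver count widely. It was 6 without mouse 101, 2 without 103, 9 without 105 and 12 without 107, and 30 without 102. The count over all genes moved widely too, from 1311 called higher in the fit reported. It was 178 without mouse 101, 7 without 103, 298 without 105, 660 without 107 and 1959 without 102.

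Of 13 genes of growth hormone signalling tested, 1 (7.69%) was called higher and 0 lower in the livers, which is near the 9.28% of all genes. This was Socs2, a feedback inhibitor that STAT5 switches on, at 6.80, 15.2 and 4.51 CPM in the control livers and 32.4, 47.0 and 57.7 CPM in the No-Trp livers (log2 fold change 2.40, edgeR adjusted p = 0.0211). The groups did not overlap, and the call was lost without mouse 101, 103 or 105. In the xenografts Socs2 was at 175 to 222 CPM on the control and 134 to 219 CPM on the No-Trp diet. Of 15 liver genes known to be higher in female mice, whose level depends on the growth hormone pattern, 11 (73.3%) were called higher in the No-Trp livers of these male mice and 0 lower, with a median log2 fold change of 3.39 against −0.0031 over all genes. Acot3, a peroxisomal acyl-CoA thioesterase, was at 17.6 to 23.6 CPM in the control and 166 to 263 CPM in the No-Trp livers (log2 fold change 3.39, edgeR adjusted p = 0.00279). Cyp2b9, a cytochrome P450, was at 3.49 to 5.91 CPM against 273 to 741 CPM (log2 fold change 6.70, adjusted p = 0.00432 with edgeR). Fmo2, Hao2, Cyp17a1, Cyp2b13, Cyp3a41a and Cyp3a44 had log2 fold changes of 1.57 to 7.64, and the Cyp2b and Cyp3a genes have near-identical copies that make their counts uncertain. Cyp2b13, Cyp3a41a and Cyp3a44, at 0.20 to 1.76 CPM in the control livers, passed the low-count filter through the No-Trp livers alone. The share of 73.3% and the median thus include genes let in by their high No-Trp level. A filter of at least 10 counts in every library removed these genes from testing. Acot3, Cyp2b9, Fmo2, Hao2 and Cyp17a1 kept their calls under it. Without mouse 101 the count of calls in this list was 5 and without mouse 103 it was 2, which were Acot3 and Cyp2b9. Over all genes, 178 were called higher without mouse 101 and 7 without mouse 103.

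Of 12 genes known to be higher in males, 1 (8.33%, near the background) was called higher in the No-Trp livers and 0 lower by edgeR. An unadjusted edgeR p under 0.05 was found for 5 of them, beside 5901 of all 14122 genes. DESeq2 called 1 higher and 3 lower. The edgeR call was Gstp1, a glutathione transferase, at 245 to 314 CPM against 465 to 922 CPM. This call was lost on library totals and without mouse 101, 103, 105 or 108. The median log2 fold change of the list was −1.63. Without control liver 102, 7 of the 12 were called higher and 1 lower. That fit called 1959 of all 14412 genes tested higher and 1248 lower. The part of that mouse in the direction of the list was not tested. In the xenografts 0 of 8 tested genes were called in either list by edgeR, while DESeq2 called 0 female-biased and 1 male-biased gene. An unadjusted edgeR p under 0.05 was found for 1 female-biased and 2 male-biased genes, beside 2483 of all 14704 genes.

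Of 8 genes that insulin represses in liver, 4 were called higher in the No-Trp livers and 0 lower, with a median log2 fold change of 1.55. Tat, which breaks down tyrosine, was at 37.0, 496 and 56.3 CPM in the control livers and 3479, 5095 and 3907 CPM in the No-Trp livers (log2 fold change 4.43, edgeR adjusted p = 0.0298). Pdk4, which keeps pyruvate out of oxidation, was at 4.15 to 31.8 CPM against 79.8 to 243 CPM. Ppargc1a, a coactivator of gluconeogenic genes, and Klf15, a regulator of amino acid breakdown, had log2 fold changes of 1.54 and 1.56. Groups did not overlap for 6 of the 8 genes, where 48.6% of all genes tested had groups without overlap. The 4 called genes are among the 6. The count of calls was 0 without mouse 101, 103 or 105, 1 without 107, 2 without 108 and 6 without 102. Over all genes, 178 were called higher without mouse 101, 7 without 103 and 298 without 105. Without 107, 108 and 102 the all-gene counts were 660, 1205 and 1959. On library totals Pdk4 and Ppargc1a missed the adjusted p (0.0520 and 0.0515). Of 10 genes that insulin induces, 1 was called higher and 1 lower in the livers. This is near the shares of all genes (9.28% and 7.27%), so these calls are not a result about the list. Me1, which makes NADPH for fat synthesis, rose (25.7 to 93.6 CPM against 283 to 325 CPM, log2 fold change 2.44). Fasn, the fatty acid synthase, fell (668 to 1008 CPM against 258 to 422 CPM, log2 fold change −1.195). Only Me1 was called without mouse 101 or 108, and neither without 103 or 105.

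Among 29 genes of insulin signalling and PI3K, 2 (6.90%) were called higher in the livers and 0 lower, a share below that of all genes (9.28%), so these calls are not a result about the list. Trib3, an inhibitor of AKT that the stress factor ATF4 induces, was at 8.06 to 14.0 CPM in the control livers and 26.8, 29.8 and 127 CPM in the No-Trp livers (log2 fold change 2.50, edgeR adjusted p = 0.0357). Phlpp1, a phosphatase of AKT, was at 9.31 to 14.6 CPM against 20.7 to 42.2 CPM (log2 fold change 1.17, adjusted p = 0.0449 with edgeR). Neither was called higher without mouse 101, 103, 105 or 107, nor Trib3 without 102, and both calls were lost on library totals. Of 10 genes tested that handle IGFs, 0 were called either way by edgeR, and DESeq2 called 1. An unadjusted edgeR p under 0.05 was found for 2 of them, beside 5901 of all 14122 genes. In the xenografts the one call was Pnpla3, a lipid droplet protein of adipocytes and hepatocytes, at 0.199 to 0.305 CPM in the control and 5.69, 11.5 and 8.10 CPM in the No-Trp tumors (log2 fold change 5.06, edgeR adjusted p = 0.00956), beside the adipocyte markers given above. Pnpla3 passed the low-count filter through the No-Trp tumors alone, where it is higher, and a filter of at least 10 counts in every library removed it from testing. It was called in each of the 6 fits that left out a tumor, but not with resubmission as a covariate (log2 fold change 5.07, adjusted p = 0.157 with edgeR). Pnpla3 is 1 of the 10 insulin-induced genes, whose median log2 fold change in the xenografts was 0.64. Of these, 7 had an unadjusted edgeR p under 0.05, beside 2483 of all 14704 genes. Groups did not overlap for 7 of the 10, against 22.5% of all genes, and DESeq2 called Pnpla3, Scd1 and Thrsp higher.

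**Figure D4:**
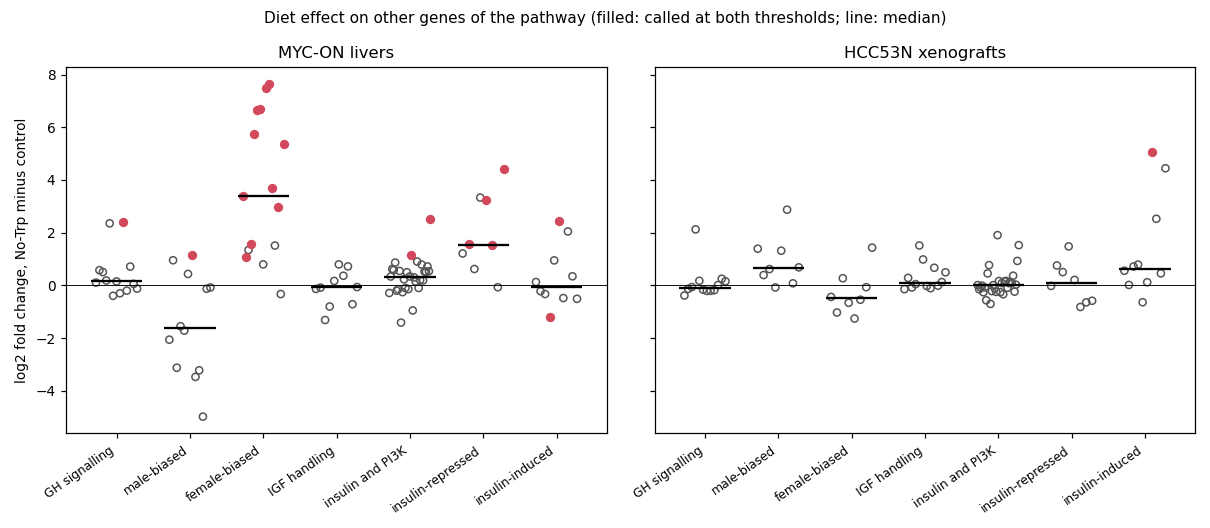
Log2 fold change of No-Trp against control diet for each tested gene of the 7 pathway lists (points; filled where called at both thresholds) with the list median (line), in MYC-ON livers and HCC53N xenografts. In the livers the female-biased (11 of 15) and insulin-repressed (4 of 8) genes hold most of the calls, and in the xenografts only Pnpla3 was called. Pnpla3 passed the low-count filter through the No-Trp tumors alone.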

How the data were processed

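Per the labels and the methods, the authors trimmed reads with Trim Galore, aligned them to mm10 with STAR 2.7.2b, sorted them with SAMtools 1.9 and counted them on genes with HTSeq, and the deposited values are raw read counts per gene and mouse, 1 library each, with nothing pooled. Strand setting and rule for overlapping genes are not given in the sources used here.

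Reads on no single gene were left out of library sizes. Each diet pair was fitted with edgeR 4.0.16 in R 4.3.3 (two-sided quasi-likelihood test with robust glmQLFit, TMM factors and the filterByExpr filter), and the interaction and the comparison of models on the 12 libraries together. Benjamini-Hochberg adjustment covered every gene tested. A call needs an adjusted p of 0.05 or less and a log2 fold change no smaller than 1 in size, the study's thresholds. Values after ± are standard errors of log2 fold changes or SD of levels. Nothing in the labels says more of the mice than their separate numbers, so p-values measure the spread between these mice.

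The genes, lists and tests were chosen with earlier results of these data known. Named are the 10 genes, called pathway genes whose higher group averages 20 counts or more (up to 8 per list, by adjusted p), and the 3 genes closest in pattern to Igf1, Ghr, Igfbp1 and Igf1r, of which 1 is not reported here. Igf2, Igf2r and Insr, and genes named for left-out fits, fall outside this rule. Of 186 listed genes 185 were found, and lengths are union exon lengths of GENCODE M21. Alternatives were DESeq2 1.42.0, RLE factors, library totals, other filters, resubmission as covariate, no Rn45s, no fold threshold, one fit over all libraries and each library left out. On simulated counts with 200 changed genes, edgeR recovered 97.0% in the liver, 98.0% in the xenograft, 64.5% in the interaction (15295 genes) and 99.0% in the model comparison. Their median fitted size was 1.98 to 2.01 on the log2 scale. Of the edgeR calls, 3.45% to 4.90% fell on unchanged genes. DESeq2 recovered 70.5% in the interaction and 97.0% in each other comparison. Of the DESeq2 calls, 7.62% in the liver, 8.92% in the xenograft, 18.97% in the interaction and 9.35% in the model comparison fell on unchanged genes. The changed genes were drawn from well-counted genes, with the same spread for all genes and no mouse that stood apart. How many differences of smaller size would be recovered was not simulated.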

Additional observations from a re-analysis of the deposited data

Results flagged for a closer look

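The diet effect differed between the models in the direct test for Igfbp4 (xenografts minus livers −2.145 on the log2 scale, edgeR adjusted p = 0.0082) and for Irs1 (−1.244, adjusted p = 0.0278 with edgeR). With the resubmission mark as a covariate the Irs1 difference missed the threshold (edgeR adjusted p = 0.0562). Igfbp4 was higher in 3 of 3 No-Trp livers than in all control livers and lower in 3 of 3 No-Trp tumors than in all control tumors.

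For Igfbp1 (−2.39) and Igf1r (−0.763) every No-Trp liver lay above the mean of the control livers and every No-Trp tumor below the mean of the control tumors, while the test of the difference missed the threshold in the fit reported (edgeR adjusted p of 0.0551 and 0.0673). The share of all genes with this pattern was not counted. Igf1r in No-Trp tumor 37 (82.7 CPM) lay above control tumor 40 (75.5 CPM), the only control tumor without the resubmission mark. With that mark as a covariate the log2 fold change of Igf1r in the tumors was −0.15. Igfbp1 was called with DESeq2 (adjusted p = 0.00702), with resubmission as a covariate (0.0424, edgeR) and with at least 10 counts in every library (0.0434, edgeR), and Igf1r passed the adjusted p with DESeq2 (0.0356) but not the fold.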

How the results depend on the processing

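No paired analysis was possible because no mouse number is shared between groups. The number of the 10 genes called higher in livers was 1 in the fit reported, 2 without a fold threshold, 0 on library totals, 3 with DESeq2, 2 in one fit over all libraries and 0 to 4 with 1 library left out. Igfbp4 held its call without mouse 102 or 108 alone. The interaction was called for 2 genes, 1 on library totals, 3 with DESeq2 or with at least 10 counts in every library, and 1 to 3 with 1 library left out (3 without 102). With resubmission as covariate it was called for Igfbp4 and Igfbp1, and Irs1 lost its call (adjusted p = 0.0562, edgeR). Pathway genes called higher in livers numbered 20, and 2 (without 103) to 30 (without 102) with 1 library left out. Over all genes the number was 1311, and 7 (without 103) to 1959 (without 102). Pathway genes called lower numbered 1, 3 without a fold threshold, 3 on library totals, 5 with DESeq2, 4 in one fit, and 0 to 3 with 1 library left out. In xenografts 1 was called higher, 2 with RLE factors, on library totals or without Rn45s, 7 with DESeq2, 0 with at least 10 counts in every library or with resubmission as covariate, and 1 to 2 with 1 library left out. Directions turned for differences that had not passed, and the cause was not tested. On library totals Igfbp2 was −0.086 and Igfbp3 −0.22 in livers, and the interaction of Igfbp2 0.060. With resubmission as covariate the interaction of Igfals was −0.17, and Igfbp3 in xenografts 0.078. With 1 library left out, the interaction ranged from −1.30 to 1.28 for Igfals (below 0 without 102), from −0.85 to 0.43 for Igfbp2 (above 0 without 107) and from −0.20 to 0.51 for Irs2 (below 0 without 103, 105 or 40, at −0.20, −0.051 and −0.034). In the same way Ghr ranged from −0.19 to 0.37 in xenografts (−0.12 without 40) and from −0.17 to 0.60 between models (−0.14 without 101, −0.16 without 43). Igfbp2 ranged from −0.54 to 0.73 in livers and from −0.29 to 0.10 in xenografts (0.041 without 40), and Igfbp3 from −0.0043 to 0.16 in livers.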

Other observations

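Genes closest in pattern were found over the 12 libraries by the root mean square difference of log2(CPM + 1), each gene centred on its mean, among 10160 genes with a mean of at least 10 CPM. Since most of the spread lies between livers and tumors, likeness here is mainly likeness in that contrast. Igf1 was closest to Igfals (0.37), then to Gbp11 and Slc17a8 (both 0.50). Igfbp1 was closest to Slc38a4 (0.49), an amino acid transporter of hepatocytes, and A1cf was also among its nearest genes (0.57). Ghr, with similar levels in both models, was closest to Dnajb4, Cpq (both 0.32) and Plod1 (0.33). Igf1r was closest to Gli3 (0.16), a factor of hedgehog signalling, Rasa3 (0.21) and Elk3 (0.24).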
